A study of Mus musculus with 31 samples.

Results

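Complement is a cascade of plasma and tissue proteins that tags cells and debris for removal. The classical pathway starts when C1q, assembled from the products of C1qa, C1qb and C1qc and made chiefly by macrophages, binds a target and activates the proteases C1r and C1s. These cut C4 and C2, the alternative pathway adds factor B (Cfb), and both routes meet at C3, whose fragments opsonize the target and attract myeloid cells. C1 inhibitor (Serping1) blocks C1r and C1s. Most circulating complement is made by hepatocytes, while fibroblasts, macrophages and tumor cells can produce it locally.

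The genes described here were C3, C1qa, C1qb, C1qc, C4b, Cfb, C1ra, C1s1 and Serping1, 9 of the 46072 genes in the expression tables. The set was selected on the RM-9 values at 12 h after radiation therapy (RT), where C3 was among the largest falls, and those values are therefore given as a description without a test. The RM-9 controls entered that comparison, so the tests that use them are not independent of the choice of the set. All 9 genes passed the filter on low values in both models, a mean of at least 0.5 TPM (a share of the transcripts of a library, corrected for transcript length so that genes can be compared).

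RM-9 is a mouse prostate cancer line and MC-38 a mouse colon cancer line, each grown subcutaneously in the hind leg of wild-type male C57BL/6J mice, which were 6 to 7 weeks old at purchase (their age at sampling is not given in the sources used here). Tumors received a single dose of 15 Gy and were taken 3 h, 12 h or 24 h later. Unirradiated control tumors carried the 3 h time point only, so RT and later sampling cannot be told apart for the later times, and the 3 RT groups of a model shared the same controls. mRNA was sequenced in 1 library per mouse, with 4 mice per group except RM-9 RT 24 h with 3, giving 31 libraries. Because each model is 1 injected line and whole tumor pieces were used, fewer cells of a type and less RNA per cell cannot be told apart.

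Depth was estimated at 21.4 to 29.4 M reads per library, and the 9 genes had between about 82 reads (the lowest C4b library) and 12794 reads (the highest C1qc library). The gene mt-Nd4l alone took 35.6% to 43.5% of all TPM in RM-9 and 12.9% to 29.6% in MC-38, with the highest MC-38 share in control mouse 1. On the log2 scale the median gene moved by -0.19 in RM-9 at 12 h, 0.06 at 3 h and -0.04 at 24 h. In MC-38 it moved by 0.19 (3 h), 0.33 (12 h) and 0.22 (24 h). As TPM is a share, changes are to be read against these shifts, whose cause was not tested. A median-ratio scaling, which sets the typical gene to no change, is given where it alters a call. The epithelial markers of the list used here summed to 669 to 1526 TPM in RM-9 but were nearly absent in MC-38, at 0.553 to 1.56 TPM, although that line is of colon epithelial origin. Hepatocyte markers (Alb, Apoa1, Apoc3, Ttr, Tat and Cyp2e1) summed to 0 to 7.25 TPM over all libraries.

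The genes lie in 3 clusters and 2 single loci (GRCm38). C1qa (chr4:136895917-136898803), C1qc (chr4:136889804-136893065) and C1qb (chr4:136880129-136886187) are neighbours on the minus strand. C4b (chr17:34728380-34743882) and Cfb (chr17:34856374-34862518) share the major histocompatibility region with C2, which ends 85 bases from Cfb. C1ra (chr6:124512632-124523440) and C1s1 (chr6:124530345-124542359) are 6904 bases apart. C3 (chr17:57203970-57228136) and Serping1 (chr2:84765387-84775444) stand alone. C4b has the near copy C4a, C1ra has C1rb and C1s1 has C1s2, so reads of these pairs may be divided with some uncertainty. Cfb also overlaps Gm20547 on the same strand over 6107 bases. Gm20547 had at most 0.233 TPM in RM-9 libraries and 0.328 TPM in MC-38 libraries.

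The 250 bases before the start site are shown for the gene on which the set was chosen (C3), for the C1q gene with the largest change in MC-38 tumors (C1qb) and for a C1 protease gene (C1s1), from RefSeq on GRCm38.p6. Promoters of 5 of the 9 genes were matched. Capitals mark matches to 5 motifs searched on both strands: PU.1 (GAGGAA), GAS (TTCNNNGAA), ISRE (GAAA, any 2 bases, GAAA), C/EBP (TTGCNNAA) and an NF-kB decamer.
C3, chr17:57228137-57228386, minus strand: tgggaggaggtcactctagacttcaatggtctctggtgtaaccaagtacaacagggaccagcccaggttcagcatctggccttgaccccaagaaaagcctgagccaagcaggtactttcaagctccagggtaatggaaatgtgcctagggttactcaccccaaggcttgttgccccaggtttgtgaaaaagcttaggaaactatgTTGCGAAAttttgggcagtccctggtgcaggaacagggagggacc
C1qb, chr4:136886201-136886450, minus strand: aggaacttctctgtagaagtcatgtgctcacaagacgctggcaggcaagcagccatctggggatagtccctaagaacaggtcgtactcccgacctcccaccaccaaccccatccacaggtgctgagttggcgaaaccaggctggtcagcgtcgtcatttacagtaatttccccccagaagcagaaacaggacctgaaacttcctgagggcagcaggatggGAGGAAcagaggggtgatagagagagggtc
C1s1, chr6:124542360-124542609, minus strand: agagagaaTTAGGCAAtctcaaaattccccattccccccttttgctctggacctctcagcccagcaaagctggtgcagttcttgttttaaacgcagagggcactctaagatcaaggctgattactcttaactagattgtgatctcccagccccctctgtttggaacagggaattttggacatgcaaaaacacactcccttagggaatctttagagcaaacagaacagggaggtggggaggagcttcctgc

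The C3 window held a C/EBP match 45 to 38 bases before the start, and C1s1 held one on the opposite strand 242 to 235 bases before it. A PU.1 match stood 30 to 25 bases before the C1qb start, and C1qc held a PU.1 match and an NF-kB match (GGGGCTCTCC). The C1ra window held no match to the 5 motifs. Of 32851 promoters of this length, 23.3% held a PU.1 match, 9.6% a C/EBP match, 7.0% a GAS match, 3.9% an NF-kB match and 3.0% an ISRE match, and the matches are a description of the letters only.

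In unirradiated tumors the C1q genes were by far the most abundant of the 9. In MC-38 controls the mean level was 340 ± 73.9 TPM for C1qb, 326 ± 60.8 for C1qa and 251 ± 48.1 for C1qc (SD, n = 4), and these 3 ranges overlapped. Cfb followed at 67.9 ± 13.7 TPM and Serping1 at 44.7 ± 19.6 TPM. C1ra (24.0 ± 5.81), C3 (19.4 ± 9.48) and C1s1 (18.2 ± 4.63) overlapped one another, and C4b was lowest at 5.51 ± 1.82 TPM.

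RM-9 controls had the same C1q genes on top at lower levels. C1qa averaged 171 ± 34.4 TPM, C1qb 164 ± 33.3 and C1qc 109 ± 21.8 (SD, n = 4). Serping1 stood at 14.1 ± 2.50 TPM and Cfb at 11.7 ± 3.40 TPM, with overlapping ranges. C3 (5.84 ± 2.27), C1s1 (4.53 ± 1.27) and C1ra (3.12 ± 0.919) also overlapped, and C4b was again lowest at 1.65 ± 0.792 TPM.

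**Figure D1:**
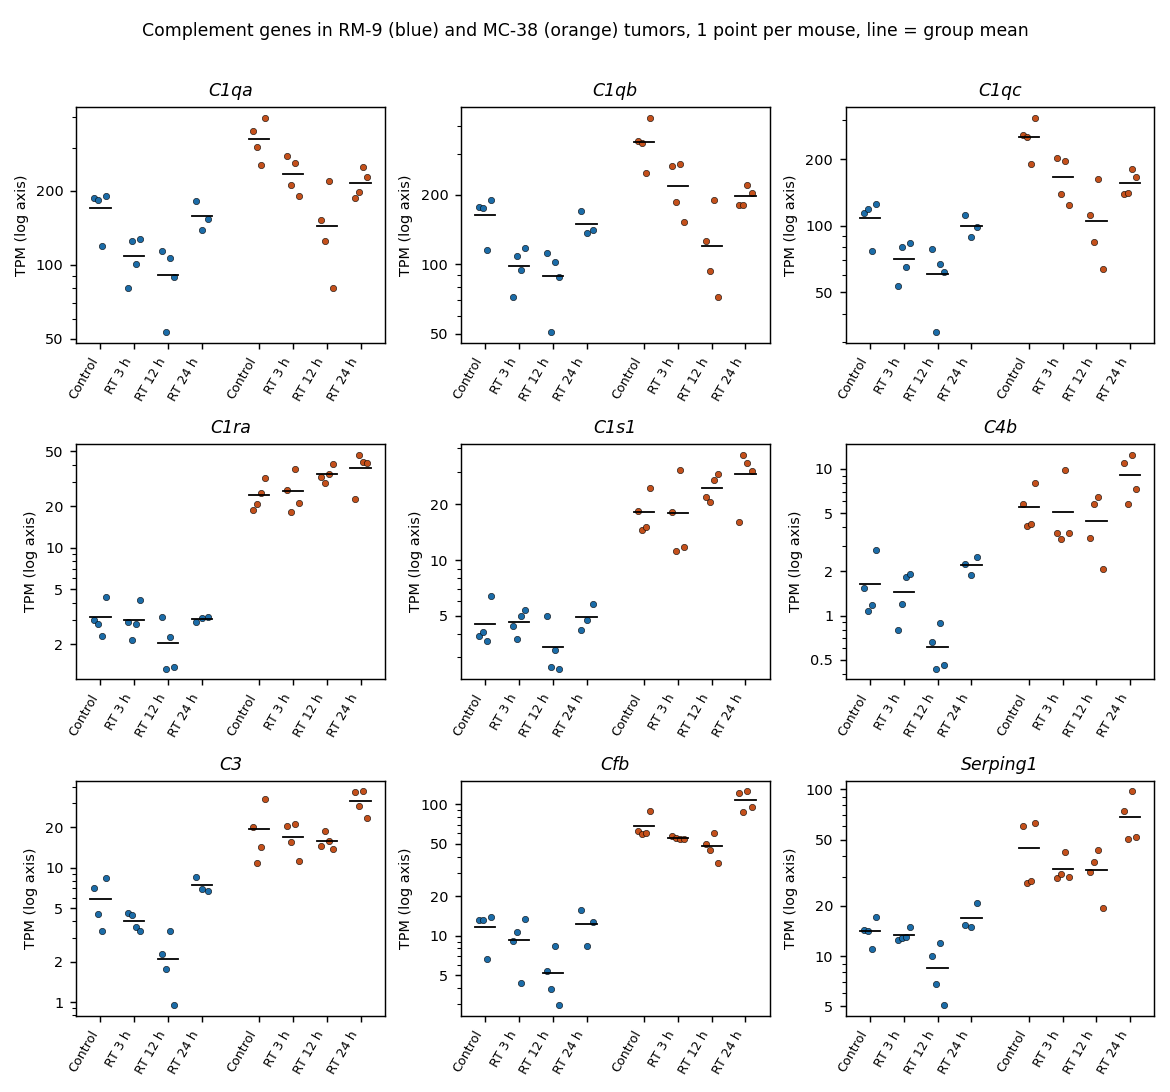
TPM of the 9 complement genes on log axes, 1 point per mouse and a line at the group mean, for RM-9 (blue) and MC-38 (orange) control tumors and tumors 3 h, 12 h and 24 h after RT. The C1q genes are lower at 12 h in both models, whereas Cfb in MC-38 is lowest at 12 h (mean 47.8 TPM) and highest at 24 h (mean 108 TPM).

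All 9 genes were higher in MC-38 than in RM-9 controls, with adjusted p from 1.15e-10 to 0.000976 (limma), against 64.7% of all genes tested called higher in that comparison. The log2 difference was largest for C1ra (2.76 ± 0.25, SE), the protease that C1q activates, and for Cfb (2.52 ± 0.28). It was 1.89 for C1s1, 1.61 for C3 and 1.54 for Serping1, and the C4b level was 2.84-fold that of RM-9. The C1q genes differed least, at 1.20 for C1qc, 1.05 for C1qb and 0.94 for C1qa, beside a median shift of 0.63 over all genes. Under median-ratio scaling 6 of the 9 remained called higher, beside 34.2% of all genes called higher and 31.4% lower. The 3 C1q genes did not pass in that scaling, with log2 differences of 0.54 for C1qc, 0.38 for C1qb and 0.27 for C1qa. Interferon-stimulated genes were also higher in MC-38 controls, 11 of 11, as were 7 of 10 macrophage genes, and their part in the complement difference was not tested. Of 19 further complement genes that passed the filter on low values in each model, 12 were called higher and 0 lower between the controls. With median-ratio scaling 4 were called higher and 3 lower, beside the 34.2% and 31.4% of all genes. The C1ra copy C1rb (2.57), C3ar1 (1.74) and C2 (1.35) had the largest log2 differences among these 19. C8g (1.65) and the C1s1 copy C1s2 (1.26) were also called higher, but they passed the filter only through MC-38, with means of 0.0817 and 0.335 TPM in RM-9, so that their direction was set by the filter.

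In RM-9 tumors at 12 h, the values that chose the set, every gene had a lower mean than in controls. C3, where the pathways converge, had 7.02, 4.55, 3.41 and 8.39 TPM in control mice 1 to 4. It had 2.27, 1.78, 3.39 and 0.952 TPM at 12 h. All 4 irradiated values lay below the lowest control, mouse 3 of the RT group (3.39 TPM) by the narrowest margin. The log2 difference was -1.30 for C3, -1.14 for Cfb, -0.94 for C1qa, -0.92 for C1qb, -0.90 for C4b and -0.89 for C1qc. It was -0.76 for Serping1, -0.55 for C1ra and -0.38 for C1s1, so the C1 proteases and their inhibitor had the smallest differences. For C3, C1qa, C1qb and C4b each RT mouse was below each control, 4 of 9 genes beside 19.4% of all genes. With median-ratio scaling all 9 differences kept their sign, from -1.12 for C3 to -0.19 for C1s1. Macrophage markers (10 genes, none at 0) summed to 188 to 359 TPM at 12 h and 287 to 467 TPM in controls, and interferon-stimulated genes to 57.5 to 142 and 113 to 204 TPM, and their part was not tested.

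The same RM-9 controls served for the other times. They entered the comparison that chose the set, so the tests at 3 h and 24 h are not independent of that choice. At 3 h 0 of the 9 genes passed the limma test in RM-9, beside 0.228% of all genes called in either direction. C1qa was 187, 184, 119 and 191 TPM in controls and 80.4, 125, 100 and 128 TPM at 3 h. The irradiated range overlapped only with control mouse 3. The log2 differences were -0.74 ± 0.22 (SE) for C1qb, -0.65 ± 0.22 for C1qa and -0.62 ± 0.23 for C1qc, with adjusted p of 0.121, 0.141 and 0.158 in limma. At an unadjusted p under 0.05, 3 of the 9 differed, beside 21.8% of all genes at that threshold, and Dunnett's comparison on TPM, run for the members without adjustment across genes, called 3. The other 6 genes ranged from -0.42 for C3 to 0.06 for C1s1.

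By 24 h the RM-9 levels stood near the controls. C3 was 8.47, 6.99 and 6.72 TPM in the 3 mice, all above the 2 lower controls and overlapping with the others. C1qa was 182, 139 and 153 TPM, within the control range. The log2 differences ran from -0.12 for C1qb to 0.40 for C4b, and 0 of 9 genes passed in limma (adjusted p of 0.999 or above), at an unadjusted p under 0.05 or in Dunnett's comparison. Of all genes tested, 0.0% passed at this time. The 95% intervals of the differences were wide, from -0.20 to 0.96 for C3 and from -0.57 to 0.38 for C1qa.

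**Figure D2:**
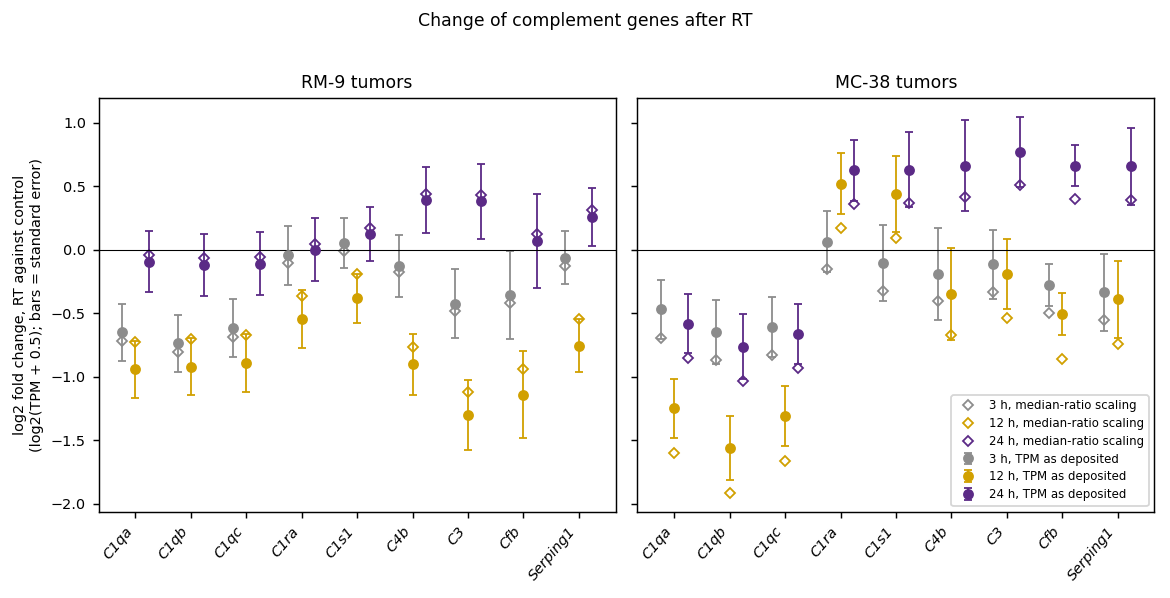
log2 fold change of each complement gene after RT against the controls of its model, with bars for the standard error, from TPM as deposited (filled) and after median-ratio scaling (open). In MC-38 at 12 h the C1q genes sit between -1.25 and -1.56 while C1ra and C1s1 sit above 0, and the RM-9 values at 12 h are those that chose the set.

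In MC-38 tumors at 3 h, 0 of the 9 genes passed the limma test, beside 0.0637% of all genes called. The C1q genes again had lower means, with log2 differences of -0.65 ± 0.25 (SE) for C1qb, -0.61 ± 0.24 for C1qc and -0.47 ± 0.23 for C1qa, and adjusted p of 0.199, 0.199 and 0.264. At an unadjusted p under 0.05, 2 of the 9 differed, beside 19.9% of all genes at that threshold, and Dunnett's comparison called 2. Cfb, the protease subunit of the alternative pathway convertase, was 63.2, 59.1, 60.9 and 88.3 TPM in controls and 57.1, 55.4, 54.2 and 54.1 TPM at 3 h. Every irradiated mouse was below every control for Cfb, 1 of 9 genes beside 0.975% of all genes, but the log2 difference of -0.28 ± 0.17 did not pass (adjusted p = 0.329).

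At 12 h in MC-38 tumors the C1q genes fell by more than a log2 unit, and Cfb fell less. C1qa was 349, 303, 255 and 397 TPM in controls and 152, 125, 219 and 80.5 TPM at 12 h. C1qb went from 343, 336, 250 and 431 TPM to 127, 93.3, 190 and 71.9 TPM, and C1qc from 256, 251, 189 and 306 TPM to 111, 84.1, 162 and 63.9 TPM. For these 3 genes all irradiated mice lay below all controls, beside 1.97% of all genes, with mouse 3 the highest and mouse 4 the lowest of the RT group in each. The log2 change was -1.56 ± 0.25 (SE) for C1qb, -1.31 ± 0.24 for C1qc and -1.25 ± 0.23 for C1qa, with adjusted p of 0.00497, 0.00633 and 0.00688 in limma. Cfb changed by -0.51 ± 0.17 (adjusted p = 0.0332), with 49.5, 45.1, 61.0 and 35.6 TPM at 12 h, and mouse 3 overlapped the controls. In all, 4 of 9 genes were called lower and 0 higher, where 2.59% of all genes were called lower and 28.5% higher.

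Among the other members at 12 h, C1ra and C1s1 had higher means and C3, C4b and Serping1 lower ones. C1ra was 18.7, 20.7, 24.9 and 31.8 TPM in MC-38 controls and 32.7, 29.6, 34.0 and 40.6 TPM at 12 h, a log2 difference of 0.52 ± 0.24 (SE) that did not pass (adjusted p = 0.0960). C1s1 differed by 0.44 ± 0.30, C3 by -0.19 ± 0.27, C4b by -0.35 ± 0.36 and Serping1 by -0.39 ± 0.30, and none of these passed. With median-ratio scaling C1ra and C1s1 were at 0.17 and 0.09, C3 at -0.54, C4b at -0.67 and Serping1 at -0.74, none of which passed, and the same 4 genes were called lower. Counting the main fit with those of other settings or with a mouse left out, the C1q genes passed in all 18 limma fits. Cfb passed in 11, the main fit included. Cfb did not pass without control mouse 1 or 4 or RT mouse 1, 2 or 4 (adjusted p of 0.0501 to 0.103), with no filter on low values (0.0642), with only the groups compared (0.0752) or in Dunnett's comparison, and control mouse 1 is the MC-38 library with the highest mt-Nd4l share.

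Most macrophage markers fell at the same time as the C1q genes. Of 10 macrophage genes 6 were called lower at 12 h in MC-38, with a median log2 change of -1.07 beside 0.33 over all genes. Their sum was 184 to 457 TPM at 12 h and 467 to 800 TPM in controls, and no marker was at 0. Adgre1, which encodes the macrophage surface protein F4/80, was 24.0, 22.8, 20.7 and 30.9 TPM in controls and 13.5, 10.1, 18.4 and 7.08 TPM at 12 h, so mouse 3 was again the highest and mouse 4 the lowest. The ratio of C1qa to Adgre1 within a library does not depend on the scaling. It was 12.3 to 14.6 in controls and 11.2 to 12.3 at 12 h, ranges that just met. The ratio of C1qa to Cd68, another macrophage gene, was 3.32 to 4.97 in controls and 1.28 to 2.47 at 12 h without overlap. Ratios to Ms4a7, Lyz2 and Aif1 overlapped between controls and 12 h, and ratios to the remaining macrophage genes of the list were not computed. They were 3.85 to 4.89 and 3.85 to 4.55 for Ms4a7, and 0.911 to 1.22 and 0.871 to 1.45 for Lyz2. For Aif1 they were 5.61 to 6.80 and 6.17 to 7.08. Skeletal muscle markers varied widely, summing to 19.6 to 11508 TPM in MC-38 controls and 6.08 to 481 TPM at 12 h (median log2 difference -3.62, 0 of 8 called). In RM-9 the muscle sum was 247 to 2337 TPM in controls, 3.02 to 924 TPM at 3 h and 2.83 to 970 TPM at 12 h. The part of macrophage and muscle content in the C1q differences was not tested.

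**Figure D3:**
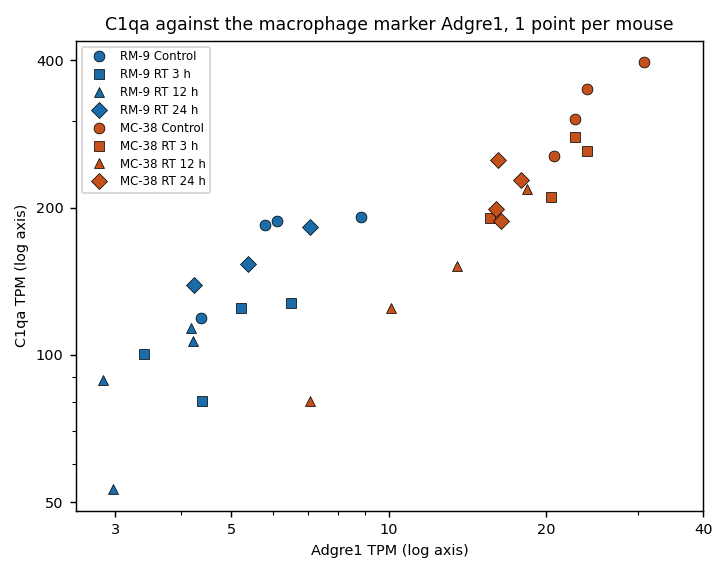
C1qa against Adgre1 in each library on log axes, 1 point per mouse, with RM-9 in blue and MC-38 in orange and a symbol per time. MC-38 libraries lie along 1 band with the 12 h mice at its lower end (80.5 to 219 TPM of C1qa), and RM-9 libraries carry more C1qa for a given Adgre1 level.

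RM-9 tumors held more C1qa per Adgre1, with a ratio of 21.6 to 31.8 in RM-9 controls, but the macrophage markers disagreed. C1qa per Ms4a7 (13.3 to 16.2 against 3.85 to 4.89 in MC-38 controls) and per Aif1 (8.55 to 10.6 against 5.61 to 6.80) was also higher in RM-9. C1qa per Cd68 overlapped (3.30 to 4.62 against 3.32 to 4.97), and C1qa per Lyz2 was lower in RM-9 (0.532 to 0.748 against 0.911 to 1.22). The ratio of C1qb to C1qa, subunits of the same protein, was 0.981 to 1.11 in MC-38 controls and 0.748 to 0.893 at 12 h, without overlap. In RM-9 it was 0.943 to 0.995 in controls, 0.867 to 0.943 at 3 h and 0.959 to 0.997 at 12 h. C1ra per C1qa was 0.0535 to 0.0977 in MC-38 controls and 0.156 to 0.505 at 12 h, and in RM-9 it was 0.0151 to 0.0231 in controls, 0.0172 to 0.0359 at 3 h and 0.0154 to 0.0279 at 12 h. These ratios were chosen after the values were seen and were not tested.

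**Figure D4:**
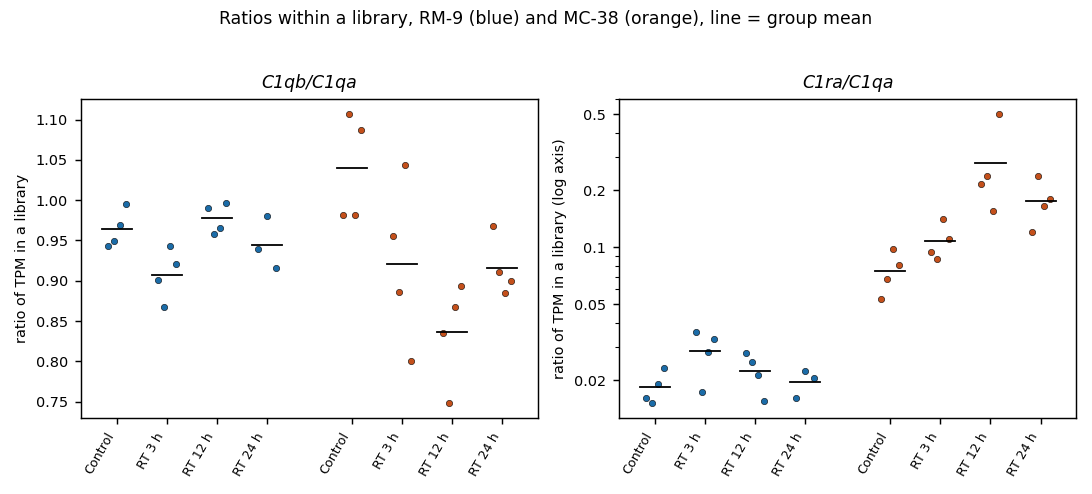
Ratio of C1qb to C1qa (left, linear axis not starting at 0) and of C1ra to C1qa (right, log axis) in each library, 1 point per mouse and a line at the group mean. In MC-38 the C1ra to C1qa ratio is above every control in each mouse at 12 h (0.156 to 0.505) and 24 h (0.120 to 0.238).

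At 24 h in MC-38 tumors the 9 genes separated into those at or above control and the C1q genes below it. Cfb was 123, 86.9, 126 and 95.3 TPM at 24 h, so that 3 of 4 mice lay above every control and mouse 2 lay just under control mouse 4 (88.3 TPM). It rose by 0.66 ± 0.17 (SE, adjusted p = 0.0163), the only 1 of the 9 called, where 13.2% of all genes were called higher. With median-ratio scaling the Cfb change was 0.40 and did not pass (adjusted p = 0.219), and with only the groups compared Cfb did not pass (0.0797) while C1qb did (0.0445). Dunnett's comparison called 5 members (C3, the 3 C1q genes and Cfb). C3 was 20.1, 10.8, 14.3 and 32.4 TPM in controls and 36.4, 28.9, 36.9 and 23.3 TPM at 24 h. Its log2 difference was 0.77 ± 0.27 (adjusted p = 0.0711), and control mouse 4 overlapped the RT group.

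C4b, Serping1, C1s1 and C1ra had log2 differences of 0.66, 0.66, 0.63 and 0.63 at 24 h, none of which passed. C1ra in mouse 1 (22.5 TPM) lay among the controls, while the other mice had 40.8 to 47.2 TPM. The C1q genes were still lower at 24 h, with log2 differences of -0.76 for C1qb, -0.66 for C1qc and -0.58 for C1qa. In all 3 every irradiated mouse was below every control, beside 0.898% of all genes, but the test was not passed (adjusted p of 0.0561, 0.0735 and 0.102). With median-ratio scaling C1qb and C1qc were called lower. Interferon-stimulated genes rose at this time, 11 of 11 with a median log2 change of 0.96, as did 6 of 8 acute phase and NF-kB genes (list median 1.36), beside 0.22 over all genes. Their sums were 3879 to 6121 TPM against 1740 to 3049 in controls and 212 to 343 against 99.5 to 146 TPM, and their part in the Cfb rise was not tested.

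Whether the change after RT differed between the models was tested as an interaction in 1 fit of all libraries. None of the 9 genes passed at 3 h, where 0.0% of all genes did, or at 24 h, where 1.81% did, and none had an unadjusted p under 0.05, beside 9.89% and 22.2% of all genes. The lowest adjusted p was 0.830 at 3 h and 0.303 at 24 h. A difference of responses between the models was thus not detected at these times.

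Of 45 further complement genes, the filter on low values left 20 for RM-9 tumors and 23 for MC-38 tumors. The others, which include most lectin and terminal pathway genes and several regulators and receptors, averaged under 0.5 TPM, and 8 in RM-9 and 4 in MC-38 were at 0 in every library. No tested gene of this list passed at 3 h in either model or at 24 h in RM-9, where 1, 3 and 1 genes had an unadjusted p under 0.05 (RM-9 3 h, MC-38 3 h and RM-9 24 h), beside 21.8%, 19.9% and 4.86% of all genes. At 12 h in MC-38, 5 of 23 were called lower and 2 higher, with a list median of -0.12 beside 0.33 over all genes and with the shares of all genes given above (2.59% lower, 28.5% higher). With median-ratio scaling 7 were called lower and 0 higher, beside 10.2% and 6.2% of all genes.

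The genes called lower at 12 h are known from myeloid cells. They were the anaphylatoxin receptors C5ar1 (-1.04 ± 0.23, SE) and C3ar1 (-0.96 ± 0.21), properdin or Cfp (-0.92 ± 0.22), which stabilizes the alternative convertase, and the complement receptor subunits Itgax (-0.75 ± 0.24) and Itgb2 (-0.54 ± 0.18). Their adjusted p was 0.0117, 0.0115, 0.0144, 0.0323 and 0.0346. All 5 were also called lower with median-ratio scaling, while Itgax and Itgb2 lost the call in several fits with a mouse left out. Itgax lost it without control mouse 2 or 4 or RT mouse 2 or 4 (up to adjusted p = 0.0977). Itgb2 lost it without control mouse 2 or 4 or RT mouse 1, 2 or 4 (up to 0.105). Both also lost it in limma with no filter on low values (adjusted p of 0.0661 and 0.0664). With only the groups compared they lost it as well (0.06695 and 0.0825). C5ar1 was 12.8, 13.4, 12.2 and 19.0 TPM in controls and 6.04, 5.93, 10.8 and 4.82 TPM at 12 h, without overlap. C3ar1 had returned to 28.8, 24.1, 25.8 and 24.7 TPM at 24 h, within the control range of 19.8 to 30.0 TPM.

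C2, which C1s cuts to form the classical convertase, was called higher in MC-38 at both later times. It was 6.38, 6.15, 7.14 and 6.11 TPM in controls, 9.70, 9.14, 10.1 and 9.82 TPM at 12 h and 11.4, 15.1, 14.8 and 10.2 TPM at 24 h. No irradiated mouse at these times overlapped the controls. The log2 change was 0.55 ± 0.15 (SE, adjusted p = 0.0211) at 12 h and 0.93 ± 0.15 (adjusted p = 0.00168) at 24 h. With median-ratio scaling it passed at 24 h (0.68) and not at 12 h (0.22), where it also missed the threshold without control mouse 4 or RT mouse 4 (adjusted p of 0.05045 and 0.0543). Its neighbour Cfb was lower at 12 h, so that the ratio of Cfb to C2 was 8.53 to 14.4 in controls, 3.62 to 6.05 at 12 h and 5.76 to 10.8 at 24 h. The complement gene Hc, which encodes C5, changed by 0.57 ± 0.16 at 12 h (adjusted p = 0.0219) at only 1.41 to 1.72 TPM. It did not pass with median-ratio scaling (0.33) or in limma with only the groups compared (adjusted p = 0.0672). It also did not pass without control mouse 1 or RT mouse 2, 3 or 4 (adjusted p of 0.0501 to 0.0595).

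Cfd, the adipocyte protease that cuts factor B, rose in MC-38 at 24 h by 2.49 ± 0.77 (SE, adjusted p = 0.0432). It was 4.27, 2.16, 0 and 0.52 TPM in controls and 36.8, 4.47, 4.54 and 6.34 TPM at 24 h, so that mouse 1 was far above the rest. Without RT mouse 1 the change was 1.80 and did not pass (adjusted p = 0.0942), nor did it without control mouse 3 or 4 or RT mouse 2 or 4 (up to 0.103), or with median-ratio scaling (0.0878). Cfd also did not pass in limma without mitochondrially encoded genes (adjusted p = 0.0587). The same held with no filter on low values (0.0992) and with only the groups compared (0.115). Adipocyte markers summed to 25.8 to 41.0 TPM at 24 h and 24.8 to 50.2 TPM in controls. C4a, the near copy of C4b, did not pass at any time in MC-38, where it was 1.04 to 1.31 TPM in controls and 1.04 to 3.42 TPM at 24 h.

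Across the libraries of a model the C1q genes varied together, with Pearson's r of 0.986 or more between each pair in both models. These correlations are descriptions over 15 RM-9 and 16 MC-38 libraries that share their depth and scaling. In MC-38 C1ra and C1s1 also varied together (r = 0.94), as did C4b and Serping1 (r = 0.90), whereas C1qa had r of -0.30 with C1ra and 0.27 with C3. In RM-9 the corresponding values were 0.93, 0.87, 0.68 and 0.75, over libraries that include those at 12 h on which the set was selected.

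Outside the 9 members, the genes most like C1qa in MC-38 were Lpcat2, Ms4a7, Ctsh, Adgre1 and Ly86, with r of 0.97 to 0.98 over 16 libraries. In RM-9 they were Cyba, Cd52, Aif1, Fcer1g and Rac2, with r of 0.96 to 0.98 over 15 libraries. Also outside the members, the genes most like C3 in RM-9 were Serpina3n, Cyp4v3, Gm7278, Cebpd and Apod (r of 0.90 to 0.95). In MC-38 they were Ctsd, St3gal1, Pecam1, Scarf1 and Il2rg (r of 0.85 to 0.88). With the 9 members left out, neither the 5 genes most like C3 nor the 5 most like C1qa had a gene in common between the 2 models. Among the members, C3 had r of 0.90 with Serping1 in RM-9 and 0.86 in MC-38. C1qa had r of 0.986 or more with C1qb and C1qc in both models.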

How the data were processed

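Gene expression was measured by mRNA-seq in 31 tumors, 1 library each. The authors deposited 1 table per library with coverage (signal), FPKM and TPM per gene; the aligner and counter are not given in the sources used here. The submitters' processing notes name bcl2fastq 2.17 and GRCm39, but 45223 of the 46072 deposited gene identifiers are in GENCODE M21 and 91.1% of those have the same start or end there, so GRCm38 coordinates are given. TPM of genes with several rows was summed. Depth was estimated from deposited coverage and FPKM with 75-base reads. The tables hold no counts, so no counting error is given.

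The members and gene lists were chosen with earlier results of these data known. The log2(TPM + 0.5) values entered limma 3.58.1 (R 4.3.3; lmFit, eBayes with trend) for each gene averaging 0.5 TPM or more, 14013 for RM-9, 15698 for MC-38 and 15358 in the fit of all libraries, which gave the comparison of controls and the interactions. Two-sided p-values were adjusted by Benjamini-Hochberg over all genes tested, with a threshold of 0.05. A fold change on this scale understates that of low genes. The script was tested on simulated data. Alternatives were scaling (median ratio; TPM without mitochondrial genes), pseudocounts of 0.1 and 1, filters (none; mean TPM of at least 5), no trend, only the groups compared, a replicate block, leaving out each mouse, and Dunnett's comparison on TPM, the test of the study. The text names all 9 members and the other complement genes past the threshold (at most 5 per comparison) with C2 and C4a. It also names the 5 genes outside the members (mean TPM of at least 1) with the highest Pearson's r to C3 and to C1qa. Itgb2 falls outside this rule and was named after its value was seen, as were Adgre1, Cd68 and Lyz2. One further gene of the naming rule is not reported here.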

Additional observations from a re-analysis of the deposited data

Results flagged for a closer look

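In groups of 4 mice, 1 value stood far from the other 3 by Dixon's criterion (0.829) in 6 of 63 sets of a gene and a group. Independent normal values give about 1 in 20. The sets share mice and hold genes that vary together, so the count cannot be judged against that rate. In RM-9 controls C1qa was 119 TPM in mouse 3 (184 to 191 TPM in the others), Cfb was 6.60 TPM in mouse 3 (13.1 to 13.8 TPM) and C1s1 was 6.42 TPM in mouse 4 (3.68 to 4.11 TPM). In MC-38 controls Cfb was 88.3 TPM in mouse 4 (59.1 to 63.2 TPM). At 3 h in MC-38, C4b was 9.77 TPM (3.32 to 3.67 TPM in the others) and Serping1 was 41.9 TPM (29.5 to 31.2 TPM), both in mouse 3. No cause of these values was tested.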

How the results depend on the processing

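The count of the 9 genes called stayed within 1.5 times for 5 of the 8 comparisons under all alternatives. Dunnett's comparison called 3 genes in RM-9 at 3 h, 2 in MC-38 at 3 h and 5 in MC-38 at 24 h. For MC-38 at 24 h, where 1 gene was called, 2 were called with median-ratio scaling, 2 without mitochondrially encoded genes and 2 with a mean TPM of at least 5, and 1 to 3 when each mouse was left out (3 without control mouse 3 or RT mouse 1, 2 without control mouse 4); the cause was not tested. For MC-38 at 12 h it was 3 to 4. No pairing by mouse number was seen, which cannot exclude one. Deviations correlated above 0.1 in 7 of 24 same-numbered pairs in MC-38 and 5 of 21 in RM-9. Among differently numbered pairs they did so in 28 of 72 and 23 of 63. With the replicate block 0 genes were called in RM-9 at 3 h and at 24 h. In MC-38 the block gave 0, 4 and 1 at the 3 times in order, with 7 between controls and 0 in both interactions. Of the further complement genes, 3 to 8 were called in MC-38 at 12 h and 1 to 3 at 24 h over the alternatives. Small differences that were not called changed sign. With median-ratio scaling C1s1 in RM-9 at 3 h was -0.0062 and C1ra in MC-38 at 3 h -0.15 (-0.020 without mitochondrially encoded genes), and C1ra in RM-9 at 24 h was -0.0031 with a pseudocount of 1. Leaving out each mouse gave, in RM-9 at 3 h, -0.25 to 0.10 for C4b, -0.19 to 0.12 for C1ra, -0.023 to 0.22 for C1s1 and -0.17 to 0.031 for Serping1, and at 24 h -0.17 to 0.32 for Cfb and -0.12 to 0.16 for C1ra. In MC-38 it gave -0.35 to 0.17 for C3, -0.12 to 0.21 for C1ra and -0.40 to 0.072 for C1s1 at 3 h, and -0.42 to 0.092 for C3 at 12 h. With 3 or 4 mice per group and no counts, levels near 0 TPM are poorly determined.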
